A study of Mus musculus with 6 samples.

Results

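Bone morphogenetic proteins (BMPs) and transforming growth factor beta (TGF-beta) signal through receptor kinases that phosphorylate SMAD proteins, which then enter the nucleus and bind DNA. SMAD1, SMAD5 and SMAD9 carry BMP signals, SMAD3 carries TGF-beta and activin signals, and SMAD6 and SMAD7 are inhibitory SMADs whose genes are themselves induced by the pathway as feedback. The Id genes encode helix-loop-helix proteins without a DNA-binding region, which hold E proteins and other basic helix-loop-helix factors away from DNA, and they are widely used as readouts of BMP signalling. In cartilage, BMP signals are needed for chondrocytes to form and mature. Phosphorylation of SMADs is not seen in RNA counts, so the values here are levels of the transcripts only.

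The levels of 10 such genes were followed in cultured mouse chondrocytes, the cells that build cartilage. They were 4 Id genes (Id1, Id2, Id3 and Id4) and 6 SMAD genes (Smad1, Smad3, Smad5, Smad6, Smad7 and Smad9), taken by symbol from a table of 44788 genes. All 10 passed the filter on low counts, which left 15362 genes for testing. The cells came from the femoral epiphysis of C57BL/6 mice labelled as postnatal day 1, and grew in DMEM/F12 medium with 10% FBS, so serum was present in every group. There were 3 groups of 2 libraries. Control cells received 0.1% DMSO for 48 h. The TGF-alpha group received 10 ng/ml TGF-alpha, which binds and activates the EGF receptor (EGFR), in 0.1% DMSO for 48 h. The third group received 10 µM gefitinib, an inhibitor of the EGFR kinase, for 30 min and then gefitinib together with TGF-alpha for 48 h, also in 0.1% DMSO. The series design names PBS instead of DMSO for the control and calls the cells P2, a term it does not explain. Gefitinib without the ligand was not analysed here, and whether replicates came from different animals or dishes is not stated, so p-values measure only the spread between these libraries, which may be technical.

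Library totals lay between 12317407 and 16096263 counts. All 15 chondrocyte markers found in the table (of 16 listed, Col2a1, Acan and Sox9 among them) were detected. Their summed level was 78186 to 83354 CPM (counts scaled to a common library size with TMM factors) in control, 39050 to 40244 with TGF-alpha and 68372 to 70883 with TGF-alpha plus gefitinib. Smaller sums of other markers moved with the groups as well. Osteoblast markers were at 357 to 363, 94.0 to 97.7 and 224 to 231 CPM in the same order. Smooth muscle and pericyte markers were at 609.7 to 678, 287 to 289 and 539.8 to 582 CPM. A sum follows its most abundant genes, and single genes of this last list moved in both directions. Over the 5 tested the median log2 fold change was 0.24 for TGF-alpha against control and -0.48 for gefitinib added to TGF-alpha. Fibroblast and perichondrial markers summed to 22089 to 23977, 14483 to 14594 and 16548 to 16939 CPM, and macrophage and osteoclast markers to 70.2 to 71.1, 73.3 to 83.3 and 105.7 to 108.9 CPM. Endothelial markers summed to 20.5 to 22.3, 43.7 to 46.5 and 19.1 to 21.8 CPM, with Cdh5, Emcn and Tie1 at 0 in all libraries, and of the macrophage markers Ptprc and C1qa were at 0. Haemoglobin genes had at most 6 counts in a library. The part of these shifts in the results below was not tested.

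The Id proteins share their helix-loop-helix region. The 60 coding bases in which the 4 agreed best are shown because they carry this likeness, read from the GENCODE M21 transcripts. They are bases 247 to 306 of the Id1 coding sequence, 178 to 237 of Id2, 193 to 252 of Id3 and 265 to 324 of Id4, counted from the A of the start codon. Capitals mark the 42 bases that all 4 genes share.
Id1: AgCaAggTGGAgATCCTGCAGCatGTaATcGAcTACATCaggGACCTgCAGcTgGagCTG
Id2: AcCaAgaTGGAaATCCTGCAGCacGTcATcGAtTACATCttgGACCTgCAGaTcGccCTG
Id3: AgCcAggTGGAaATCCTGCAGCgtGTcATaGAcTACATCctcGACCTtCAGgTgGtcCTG
Id4: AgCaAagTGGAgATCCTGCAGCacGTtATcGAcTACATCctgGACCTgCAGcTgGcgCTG
No member shared a 50-base word of its transcripts with another member. None of the 50-base words in the Id1 and Id3 transcripts occurred in a transcript of another gene on either strand. In Id2 8 of 2433 such words were shared, all with Gm6175, and in Id4 79 of 3800 were shared, with the antisense gene A330033J07Rik and the noncoding gene Gm49291 that overlap it on the other strand. A330033J07Rik itself had 0 to 9 counts per library. The use of strand in counting is not stated, and reads of this antisense gene and of Id4 may not have been separated.

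Levels of different genes are compared here per length, as CPM per kb of exon in GENCODE M21. In control cells Id3 stood highest of the 10 genes at 169 CPM per kb, followed by Id1 at 32.4, Smad3 at 26.3, Smad6 at 15.8, Smad5 at 11.3 and Id2 at 8.35. The lower end of the order was Smad1 at 5.42, Smad9 at 3.47, Smad7 at 1.67 and Id4 at 1.31 CPM per kb. No neighbouring pair in this order had overlapping values in the 2 control libraries; the closest were Smad7 (1.49 and 1.85) and Id4 (1.31 and 1.32). Using the longest transcript of each gene as its length left this order as it was.

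The first comparison asked what EGFR activation by TGF-alpha did to these transcripts. The Id genes did not move as a family: Id1, Id2 and Id3 rose, and Id4 fell. Of the SMAD genes only Smad3 passed the test, and it fell. In all 5 of the 10 genes were called (edgeR, adjusted p under 0.05), against 29.9% of all genes tested, and these were 4 of 4 Id genes and 1 of 6 SMAD genes. By direction, 3 were higher and 2 lower, against 15.9% and 14.0% of all genes tested. The libraries of the 2 groups did not overlap for 5 members that were higher and 4 that were lower, a pattern common among all genes tested (32.8% and 31.3%, or 64.1% in either direction). The median log2 fold change was 0.39 over the Id genes and -0.052 over the SMAD genes, with 0.0039 over all genes tested.

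Id1 (chromosome 2, 152736251 to 152737410, GRCm38), the Id gene most used to read BMP responses, had the largest rise of the 10. It was at 37.2 and 38.0 CPM in Control 1 and 2, at 70.3 and 77.4 in TGF-alpha 1 and 2, and at 42.8 and 42.2 in TGF-alpha plus gefitinib 1 and 2. The TGF-alpha libraries stood above the other 4, which lay close together. Id1 rose 1.96-fold with TGF-alpha (log2 0.97 ± 0.074 SE, adjusted p = 1.12e-07). Leaving out any library kept the call. In these bulk libraries a change in how many cells express a gene and a change in RNA per cell cannot be told apart.

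Id2 (chromosome 12, 25093799 to 25097140) rose less. It was at 18.6 and 22.2 CPM in the control libraries, 27.7 and 30.6 with TGF-alpha, and 26.5 and 27.3 with TGF-alpha plus gefitinib. All 4 libraries that received TGF-alpha lay above both controls, and the control libraries differed from each other more than the gefitinib libraries did. The rise with TGF-alpha was 1.43-fold (log2 0.51 ± 0.11, adjusted p = 0.00229).

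Id3 (chromosome 4, 136143497 to 136145755) had the highest level per kb of the 10 genes. Its libraries stood at 319 and 286 CPM in control, 359 and 372 with TGF-alpha and 436 and 446 with TGF-alpha plus gefitinib. The 3 groups did not overlap and formed a rising order, with the gefitinib group highest. The rise with TGF-alpha was 1.21-fold (log2 0.27 ± 0.054, adjusted p = 0.00130).

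Id4 (chromosome 13, 48261228 to 48266026) went the other way. It had 65 and 79 counts in the control libraries, 27 and 27 with TGF-alpha, and 89 and 84 with TGF-alpha plus gefitinib, which are 5.07 and 5.03, 1.95 and 1.96, and 6.10 and 6.72 CPM. The TGF-alpha libraries were the lowest and did not overlap either other group. Id4 fell 2.58-fold with TGF-alpha (log2 -1.37 ± 0.24, adjusted p = 0.000558), the largest change of the 10 genes in this comparison and also the one with the fewest counts behind it.

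**Figure D1:**
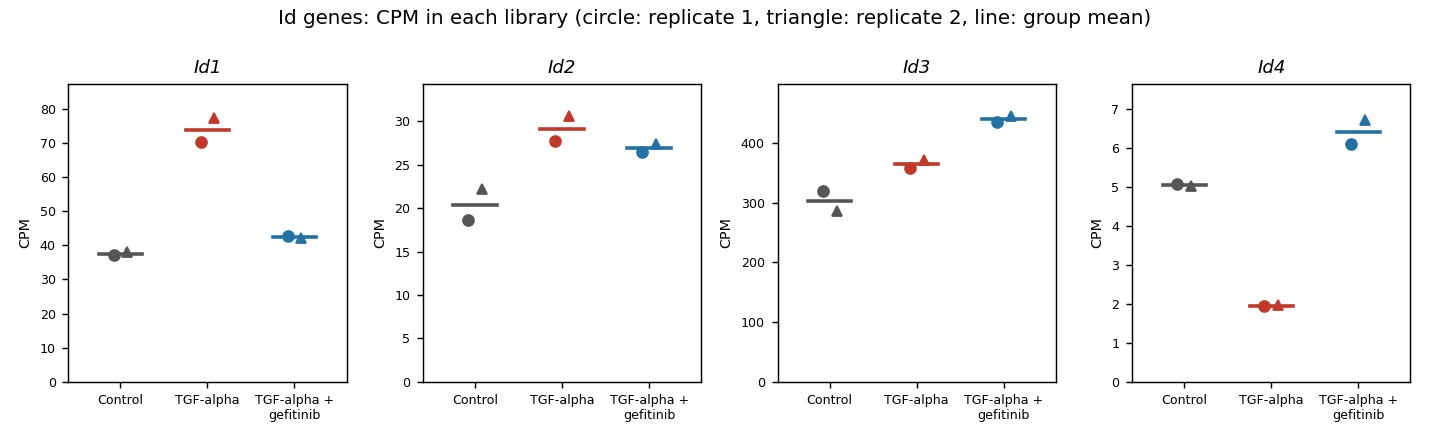
CPM of the 4 Id genes in each library (vertical axes, linear from 0 and different for each gene), with circles for replicate 1, triangles for replicate 2 and a line at the group mean. Id1 was high with TGF-alpha alone (70.3 and 77.4 CPM), Id4 was low there (1.95 and 1.96 CPM), Id2 was higher in both groups that received the ligand, and Id3 was highest with gefitinib (436 and 446 CPM).

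The SMADs that receptors activate end in a serine motif that the receptor kinase phosphorylates, and inhibitory SMADs lack it. The last 30 coding bases before the stop codon, from the GENCODE M21 transcripts, are shown for 5 of the genes because this end separates the classes. Capitals mark the last 12 bases, the codons in which the motif lies in activated SMADs.
Smad1: tcaccccacaatcctattTCATCCGTGTCT
Smad5: tctccgctgaaccccattTCTTCTGTTTCA
Smad9: tccccacacaaccctatcTCTTCAGTGTCT
Smad3: tccccgagcatccgctgtTCCAGTGTGTCT
Smad6: tggctggagatcctactcAACAACCACAGA
The transcripts of Smad1, Smad3, Smad6 and Smad7 shared no 50-base word with another gene. Smad5 shared 51 of 7506 with the small RNA Gm27301 inside it, and Smad9 shared 9 of 5319 with Gm45259 and Yipf1.

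Smad3 (chromosome 9, 63646767 to 63757994), the TGF-beta and activin SMAD, was at 145.6 and 146 CPM in control, 111 and 117 with TGF-alpha, and 129 and 127 with TGF-alpha plus gefitinib. The groups did not overlap, with the TGF-alpha libraries lowest and the gefitinib libraries between them and the controls. Smad3 fell 1.28-fold with TGF-alpha (log2 -0.35 ± 0.054, adjusted p = 0.000145), and this call was kept whichever single library was left out.

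The BMP SMADs were not called in any comparison. Smad1 (chromosome 8, 79338395 to 79399518) was at 34.0 and 33.9 CPM in control, 34.5 and 32.7 with TGF-alpha, and 33.8 and 32.1 with TGF-alpha plus gefitinib. These libraries overlapped, and the log2 difference between TGF-alpha and control was -0.012 with a 95% interval of -0.20 to 0.17 (adjusted p = 0.937). Smad5 (chromosome 13, 56703010 to 56742377) was at 82.7 and 84.9 CPM in control, 80.3 and 77.0 with TGF-alpha, and 78.5 and 75.0 with TGF-alpha plus gefitinib. The control libraries of Smad5 were the highest, but its log2 difference of -0.092 had an interval of -0.22 to 0.038 (adjusted p = 0.293). Smad9 (chromosome 3, 54755582 to 54801257) was at 18.2 and 19.0 CPM in control, 20.6 and 20.9 with TGF-alpha, and 24.4 and 20.3 with TGF-alpha plus gefitinib. Its 2 control libraries were the lowest, TGF-alpha plus gefitinib 1 stood above all others, and the difference between TGF-alpha and control was 0.16, with an interval of -0.088 to 0.40 (adjusted p = 0.345). For these 3 genes the intervals between TGF-alpha and control leave out a change by a log2 of 0.5 in either direction. The intervals of Id1 (0.82 to 1.13) and Id4 (-1.89 to -0.84) lay beyond that size, and that of Id2 (0.28 to 0.75) included it.

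Of the inhibitory SMADs, Smad7 was called in 1 of the 3 comparisons and Smad6 in none. Smad6 (chromosome 9, 63953076 to 64022059) was at 50.9 and 50.6 CPM in control, 46.7 and 48.5 with TGF-alpha, and 46.2 and 45.1 with TGF-alpha plus gefitinib. The 2 control libraries were the highest, and the log2 difference of -0.093 (interval -0.25 to 0.059) did not pass the test (adjusted p = 0.368). Smad7 had 107 and 106 counts in control, 158 and 133 with TGF-alpha, and 99 and 57 with TGF-alpha plus gefitinib, or 8.35 and 6.75, 11.4 and 9.67, and 6.78 and 4.56 CPM. Both TGF-alpha libraries were above both controls, but the spread within each group was wide, and the difference of 0.49 ± 0.20 was not called (adjusted p = 0.0845). DESeq2 put it farther from the threshold (adjusted p = 0.235). The difference was 0.33 without Control 2 and 0.36 without TGF-alpha 1, but 0.64 without Control 1 and 0.60 without TGF-alpha 2. It came under the threshold without either gefitinib library (adjusted p = 0.0475 without replicate 1 and 0.0472 without replicate 2), without the filter on low counts (0.0383) and when libraries were scaled by total counts alone (0.0495).

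**Figure D2:**
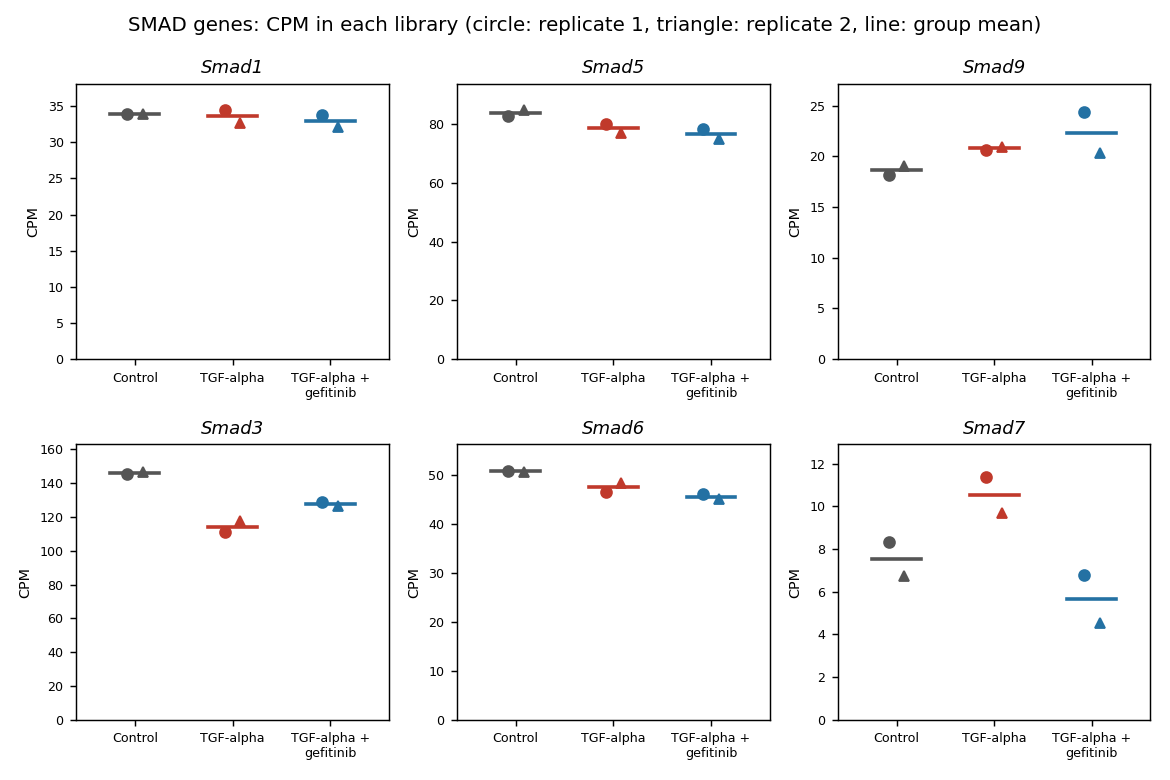
CPM of the 6 SMAD genes in each library (vertical axes, linear from 0 and different for each gene), with circles for replicate 1, triangles for replicate 2 and a line at the group mean. Smad1, Smad5 and Smad6 stayed nearly level, Smad3 was lowest with TGF-alpha (111 and 117 CPM), and Smad7 was highest there (11.4 and 9.67 CPM).

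The effect of adding gefitinib to TGF-alpha on these transcripts was read by setting the gefitinib group against the TGF-alpha group. EGFR inhibition and other effects of the drug cannot be told apart in this comparison. This comparison shares the TGF-alpha libraries with the first, so an opposite sign in the 2 comparisons is partly built in, and the levels in all 3 groups are the better guide. Id1 and Smad7 were lower with gefitinib, Id3, Id4 and Smad3 were higher, and the other 5 genes were not called. These 5 of 10 called genes stand against 34.0% of all genes tested, with 3 higher and 2 lower against 17.0% and 16.9%. Libraries did not overlap for 3 members that were higher and 4 that were lower, against 33.5% and 32.3% of all genes tested (65.8% in either direction).

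Id1 fell 1.74-fold with gefitinib (log2 -0.80 ± 0.073, adjusted p = 8.60e-07), and Id4 rose 3.26-fold (log2 1.71 ± 0.24, adjusted p = 5.61e-05). Id3 rose by a further 1.21-fold (log2 0.27 ± 0.054, adjusted p = 0.00114), so that its change with gefitinib had the same direction as its change with TGF-alpha. Id2 differed by -0.11 between the groups, with an interval of -0.34 to 0.11 (adjusted p = 0.449). Of the 4 Id genes, Id1 therefore moved toward its control level, Id3 moved further away, and Id2 was not called. Id4 moved back and past its control libraries (6.10 and 6.72 against 5.07 and 5.03 CPM), a difference from control that was not called.

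Smad7, the feedback inhibitor, fell 1.84-fold with gefitinib (log2 -0.88 ± 0.21, adjusted p = 0.00436). This call was lost without TGF-alpha 1, the higher of its libraries (adjusted p = 0.0519). Smad3 rose by 0.16 ± 0.055 (adjusted p = 0.0349), a call at the edge of the threshold. Leaving out a single library ended it in 5 of 6 cases: the adjusted p was 0.0513 and 0.0543 when Control 1 or 2 was dropped, 0.234 for TGF-alpha 1, and 0.160 and 0.0621 for gefitinib libraries 1 and 2. DESeq2 (0.127), no filter on low counts (0.0556) and a fit of only the 4 libraries compared (0.0713) ended it as well. The log2 differences of Smad1 (-0.028), Smad5 (-0.034), Smad6 (-0.060) and Smad9 (0.11) were not called (adjusted p from 0.504 to 0.840), and without single libraries the first 2 and Smad9 changed sign.

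The third comparison set TGF-alpha plus gefitinib against control, and so showed where the gefitinib group stood relative to the levels in control cells. All 4 Id genes had both gefitinib libraries above both controls, a pattern that 26.5% of all genes tested showed, and Id2 and Id3 passed the test. Smad3 was lower. These 3 of 10 called genes stand against 9.52% of all genes tested, with 2 higher and 1 lower against 5.27% and 4.26%. Over all 10 genes libraries did not overlap for 5 that were higher and 4 that were lower, the latter against 25.6% of all genes tested (52.1% in either direction).

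Id3 was 1.46-fold higher with TGF-alpha plus gefitinib than in control (log2 0.55 ± 0.054, adjusted p = 1.61e-05), and was the only one of the 10 genes whose call here held with every alternative tried. Id2 was 1.32-fold higher (log2 0.40 ± 0.11, adjusted p = 0.0350), a call that ended when Control 1 (adjusted p = 0.259) or gefitinib library 1 (0.0766) or 2 (0.128) was dropped, and with DESeq2 (0.107). Id1 was 0.18 ± 0.077 above control (adjusted p = 0.179) and Id4 0.34 ± 0.21 above it (adjusted p = 0.363), and neither passed the test.

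Smad3 differed from control by -0.19 ± 0.054 on the log2 scale (adjusted p = 0.0358). Dropping Control 1 or 2 raised the adjusted p to 0.153 or 0.174, dropping TGF-alpha 2 to 0.0502, and dropping gefitinib library 1 or 2 to 0.0686 or 0.134, each of which ended the call. It also ended with DESeq2 (0.0716) and with scaling by total counts (0.159). Smad5 (-0.13, interval -0.26 to 0.0047), Smad6 (-0.15, interval -0.31 to 4.7e-05), Smad7 (-0.39, interval -0.85 to 0.066), Smad9 (0.27, interval 0.022 to 0.51) and Smad1 (-0.040, interval -0.22 to 0.14) were not called after adjustment. The sizes of the Smad7 and Smad9 differences varied with single libraries, while their signs held. Smad7 was at -0.73 without gefitinib library 1 and -0.15 without library 2, and at -0.24 and -0.55 without Control 1 and 2. Smad9 was at 0.12 without gefitinib library 1 and 0.39 without library 2.

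**Figure D3:**
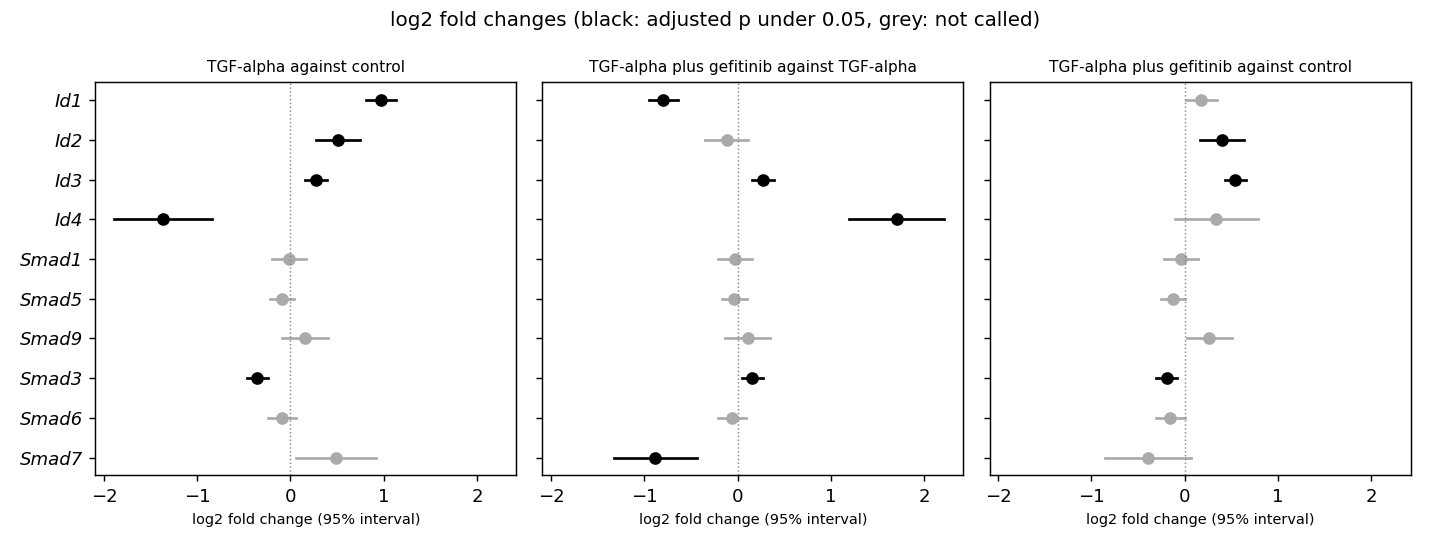
log2 fold changes of the 10 genes (horizontal axes) in the 3 comparisons, with 95% intervals from the edgeR standard errors. Black marks genes called at an adjusted p under 0.05 and grey the others. Id1 and Id4 have opposite signs in the first 2 panels and are grey in the third, whereas Id3 lies to the right of 0 in all 3.

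Likeness between patterns was measured as the Euclidean distance between log2 CPM profiles over the 6 libraries, each centred on its own mean, among genes whose mean reached 5 CPM. The genes nearest to Id1 were Nqo1 (distance 0.0514), Kazald1 (0.110) and Nav1 (0.118), and the nearest of the other 9 members was Id2 at 0.712. Nearest to Id2 were Fbxo36 (0.0965), Higd2a (0.102) and Dcps (0.119), and to Id3 Kdsr (0.106), H2-D1 (0.122) and Homer3 (0.126). For Id4 they were Cd24a (0.0990), Fgfr3 (0.245) and G0s2 (0.268), and no other member came closer to it than 1.51 (Smad3).

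The member nearest to both Id2 and Id3 was Smad9, at 0.450 and 0.393. Smad5 and Smad6 were the closest pair of members, 0.0950 apart, and Smad1 was 0.100 from Smad5. Profiles were centred but not scaled, so genes that change little lie close together, and none of these SMAD genes was called in any comparison. The genes nearest to Smad3 were Ston1 (0.0442), Phf12 (0.0621) and Creb3l2 (0.0638), and those nearest to Smad7 Fam171a2 (0.276), Lrrc1 (0.291) and Mycbp (0.306). These distances describe 6 libraries in 3 groups and carry no test.

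Promoter sequence was looked at for the members that were called. The RefSeq table (GRCm38.p6) held 8 of the 10 genes, with no entry for Id1 and Smad7. Of the called genes, Id4 and Smad3 had a window of 250 bases before the start without annotated exon, and these windows are shown for that reason. Capitals mark GTCT, the core of the element that SMAD3 binds, and GGCGCC, a GC-rich element bound by BMP SMADs, searched on both strands. The Id4 window is chr13:48260866-48261115 on the plus strand, and that of Smad3 is chr9:63757995-63758244 on the minus strand.
Id4: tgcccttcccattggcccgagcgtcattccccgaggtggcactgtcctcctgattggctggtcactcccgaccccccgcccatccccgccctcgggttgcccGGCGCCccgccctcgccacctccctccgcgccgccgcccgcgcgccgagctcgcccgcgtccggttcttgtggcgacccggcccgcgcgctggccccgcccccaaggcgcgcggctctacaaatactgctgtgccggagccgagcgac
Smad3: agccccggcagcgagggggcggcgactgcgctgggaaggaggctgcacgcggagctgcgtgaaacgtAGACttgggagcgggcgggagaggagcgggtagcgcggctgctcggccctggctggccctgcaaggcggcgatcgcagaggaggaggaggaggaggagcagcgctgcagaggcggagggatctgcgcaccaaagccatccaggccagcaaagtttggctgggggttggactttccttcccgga
The Id4 window held 1 GGCGCC and 0 GTCT, and the Smad3 window 1 GTCT (as AGAC on the strand shown) and 0 GGCGCC. Among all 32851 promoter windows of this length 9.59% held GGCGCC and 82.9% held GTCT, so the second is common. A match is a description of the letters and does not show binding.

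The genes around the members in the pathway were read from 8 lists, some of which share genes. Their counts with TGF-alpha are to be read against the 15.9% of all genes tested that rose and the 14.0% that fell. Among receptors, 2 of 12 tested genes rose and 3 fell with TGF-alpha (median log2 -0.088), with 1 rise in DESeq2 and without Control 2, TGF-alpha 1 or TGF-alpha 2. Tgfbr2, the type II receptor of TGF-beta, fell 1.40-fold and was still 1.40-fold below control with gefitinib (adjusted p = 7.8e-07 and 9.16e-06). The co-receptor gene Tgfbr3 rose 1.53-fold, while Eng, another co-receptor, and Bmpr1a, a BMP type I receptor, fell 1.22- and 1.17-fold (adjusted p = 7.32e-06, 0.00314 and 0.00911). The Bmpr1a call ended without Control 2 (adjusted p = 0.0778) or TGF-alpha 1 (0.0917) and with scaling by total counts (0.0605).

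Ligand and antagonist genes were called in both directions. The list of BMP and GDF ligands held 10 tested genes, among them Bmp1, which encodes a proteinase and not a ligand. Of the 10, 1 rose and 5 fell with TGF-alpha (median log2 -0.32), Bmp1 among the falls (log2 -0.34). Fewer fell without Control 1, TGF-alpha 1 or TGF-alpha 2. Bmp4 went from 148 ± 1.05 to 55.1 ± 2.21 CPM and was at 132 ± 8.70 with gefitinib (mean ± SD, n = 2 in each group). Of 12 secreted antagonists 2 rose and 5 fell (median 0.014), with 1 rise without TGF-alpha 2. Nog, which encodes the BMP trap noggin, fell 8.54-fold, from 30.3 ± 1.95 to 3.54 ± 1.62 CPM, and stood at 25.5 ± 0.0441 with gefitinib. Chrdl1 fell 4.45-fold and Grem1, which encodes gremlin, 1.57-fold (adjusted p = 7.86e-09, 1.56e-10 and 5.64e-07 for Nog, Chrdl1 and Grem1). Twsg1, from the same list, rose 1.31-fold (adjusted p = 2.51e-05). Of the 6 genes on the list of TGF-beta and activin ligands 2 rose and 2 fell. Tgfb1 rose 2.40-fold, and Tgfb2 and Tgfb3 fell 2.00- and 1.44-fold. The other rise, 1.39-fold, was that of Inha, which encodes the alpha subunit of inhibin, an antagonist of activin. Inha was at the edge of the threshold (adjusted p = 0.0436), and its call ended with DESeq2 (0.180), with the replicate number as a block (0.0596) and without Control 1 (0.202), Control 2 (0.0770), TGF-alpha 1 (0.126) or TGF-alpha 2 (0.148).

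Regulators and target genes of the SMADs also held calls in both directions. Of 19 SMAD partners and regulators 5 rose and 3 fell with TGF-alpha (median 0.013), with Smurf2, a ubiquitin ligase for SMADs, up 1.30-fold and the SMAD corepressor gene Skil up 1.45-fold (adjusted p = 0.000957 and 0.00656). The Skil call ended without Control 2 (0.103) or TGF-alpha 1 (0.0587), and of the 3 falls 1 was left with DESeq2 or without Control 2 and 0 without TGF-alpha 1. Of 12 tested BMP targets outside the Id and SMAD families 4 rose and 2 fell (median 0.22), but only 2 rose with DESeq2 and without Control 1, Control 2 or TGF-alpha 2. Atoh8 rose 1.52-fold and Gata2 1.55-fold, whereas Msx1 and the decoy receptor gene Bambi fell 1.58- and 1.38-fold (adjusted p = 2.72e-05, 0.00151, 0.0131 and 0.0217). Both falls lost their call with DESeq2 (adjusted p = 0.0566 for Msx1 and 0.0883 for Bambi), without Control 2 (0.158 and 0.218) and without TGF-alpha 1 (0.0555 and 0.188), and Msx1 also without TGF-alpha 2 (0.0648).

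Of 12 TGF-beta target genes 6 rose and 2 fell (median 0.19). Ltbp2, which encodes a latent TGF-beta binding protein, rose 3.80-fold with TGF-alpha, and Thbs1, which encodes thrombospondin 1, fell 1.83-fold (adjusted p = 7.49e-12 and 6.39e-09). Ltbp2 was at 115 ± 10.1 CPM in control, 435 ± 9.35 with TGF-alpha and 94.7 ± 3.09 with gefitinib added. Thbs1 stayed low with gefitinib, at 24641 ± 1214, 13461 ± 1037 and 14558 ± 70.3 CPM in the same order. With gefitinib added 1 of the 12 was higher and 8 were lower than with TGF-alpha alone, against 17.0% and 16.9% of all genes tested, and 2 were higher without TGF-alpha 1, without the filter on low counts and under a replicate block. Among helix-loop-helix partners and relatives of the Id proteins 5 of 13 tested genes rose and 1 fell with TGF-alpha (median 0.36). The shares over all genes tested were 15.9% and 14.0%. Bhlhe40 rose from 35.6 ± 1.88 to 100.9 ± 0.336 CPM (adjusted p = 3.64e-10) and was at 57.8 ± 0.196 CPM with gefitinib. The E protein gene Tcf12 fell 1.20-fold with TGF-alpha (adjusted p = 0.00171). The median over all genes tested was 0.0039 in this comparison.

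**Figure D4:**
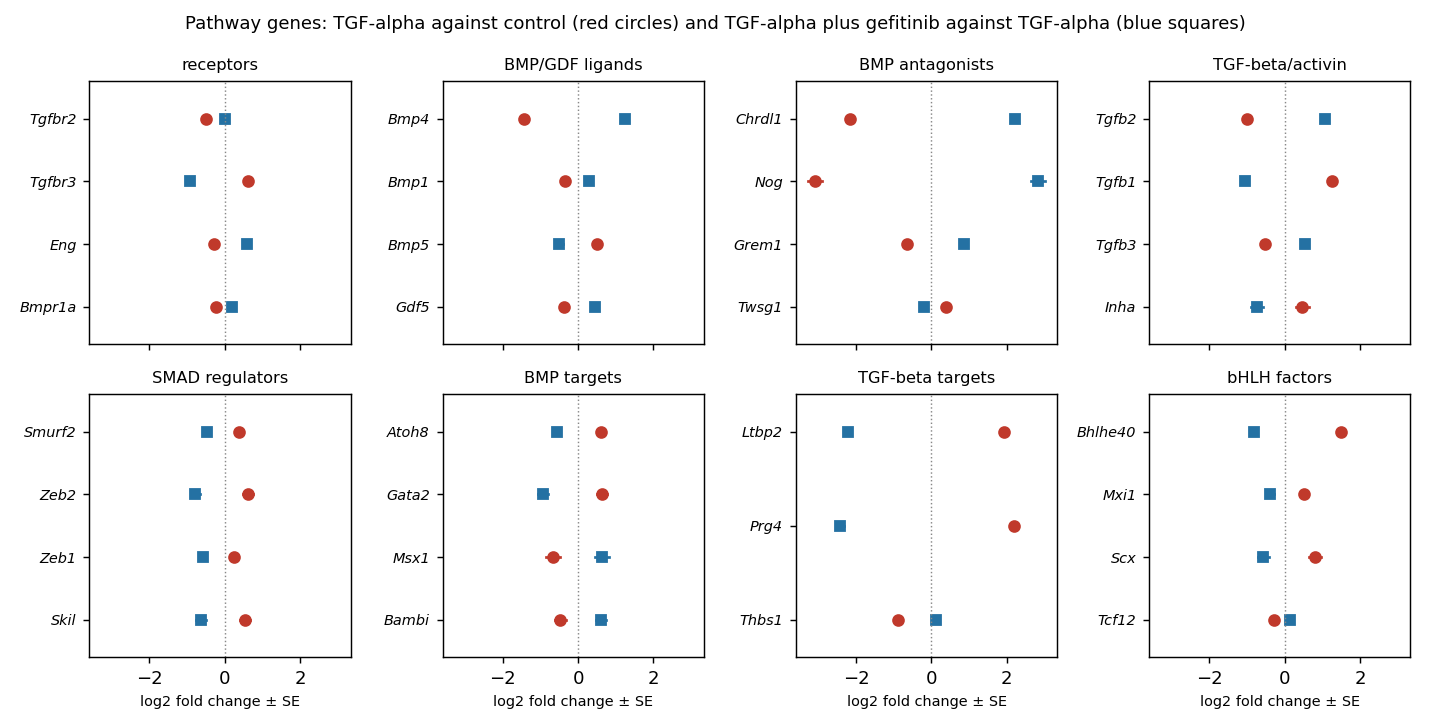
log2 fold changes (horizontal axes, with bars of 1 SE, hidden where shorter than the marker) of up to 4 genes from each of 8 pathway lists, for TGF-alpha against control (red circles) and TGF-alpha plus gefitinib against TGF-alpha (blue squares). The genes were named by the smallest p in the first comparison, so their size is a product of that choice. The TGF-alpha libraries enter both comparisons. Nog, Prg4, Chrdl1 and Ltbp2 lie farthest from 0.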

How the data were processed

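RNA of 6 cultured chondrocyte libraries (3 groups of 2) was sequenced on an Ion Proton, per the labels' protocols. The authors deposited 1 table of whole-number read counts per gene symbol, not normalized, 1 column per library. GRCm38 is the genome build per the submitters' processing notes. The aligner, counter, annotation, strand setting and filters were not given in the sources used here.

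The test was edgeR 4.0.16 under R 4.3.3: filterByExpr (minimum count 10), TMM scaling, and a two-sided quasi-likelihood test on all 6 libraries, modelling group alone. Benjamini-Hochberg adjustment ran over 15362 genes, and an adjusted p under 0.05 was a call. The SE is the absolute log2 fold change over the square root of F, and intervals use the 3 residual plus 11.2 prior degrees of freedom. The fit was tested on simulated data. DESeq2 1.42.0 and other scalings, filters and subsets of libraries were alternatives. Replicates differed beyond counting noise (chi-square per degree of freedom 3.03 to 3.83). A mean over 2 libraries limits the precision.

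The members and gene lists were chosen with earlier results of these data known. The rule for named genes took all 10 members, up to 4 called genes with the smallest p from each pathway list, and the 3 genes nearest in pattern to each member; some are not reported here, in the text or the plots, but stayed in the tests and list counts. Positions, exon lengths and coding bases came from GENCODE M21 (GRCm38).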

Additional observations from a re-analysis of the deposited data

How the results depend on the processing

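Of 360 values of the 10 genes under alternatives (12 settings in each of 3 comparisons), 329 kept their direction and side of the threshold (1 of them without an adjusted p from DESeq2), 20 lost the call, 4 gained it and 7 changed sign, none of them in a called gene. Id1, Id3 and Id4 kept their calls in the first 2 comparisons under all 12 settings, and Id2 and Smad3 theirs in the first. With total-count scaling Smad1 changed sign to 0.053 for TGF-alpha against control and 0.024 for TGF-alpha plus gefitinib against control. Leaving out single libraries moved Smad1 between -0.052 and 0.024 in the first comparison, and in the second Smad1 between -0.079 and 0.011, Smad5 between -0.082 and 0.0012, and Smad9 between -0.047 and 0.23. Without single libraries, members called numbered 5 to 6, 3 to 5 and 1 to 3 in the 3 comparisons, and genes called 3297 to 4767, 3703 to 4950 and 649 to 1291; the lowest counts of members fell without TGF-alpha 1 in the second, and without Control 1 or either gefitinib library in the third, where genes called numbered 666 and 649 without Control 1 and 2 and 893 without gefitinib library 2. For TGF-alpha plus gefitinib against control DESeq2 called 951 genes and 1 member, against 1463 and 3 with edgeR. Scaling by total counts moved calls from 2446 higher and 2154 lower to 3034 and 1604 in the first comparison, and from 809 and 654 to 1333 and 388 in the third. Libraries with the same replicate number showed no shared deviation between groups (correlations of 0.0034, 0.0108 and -0.0228). These correlations cannot show whether such libraries were prepared together. A replicate block gave 4450, 5042 and 1335 called genes with 5, 5 and 3 members. The low counts of Id4 and Smad7 limit their precision.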
